A study of Mus musculus with 10 samples.

Results

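The genes described here encode the semaphorins and their plexin receptors, the ephrins and their Eph receptors, the Slits and their Robo receptors, and the netrins and their Unc5 receptors. They were chosen by gene name alone, as the protein coding rows whose GENCODE symbol belongs to one of these families, which gave 65 of the 21918 protein coding genes in the count table. The cells were primary aortic smooth muscle cells, freed from the vessel wall with collagenase and grown to passage 2 without further treatment. One group came from animals that carried a W and a Wv allele of Kit (WWv, 5 libraries) and the other from wild type animals (WT, 5 libraries). The protocol names 5 mice of each genotype, but the titles only number the libraries, so p-values measure the spread between cultures that may or may not each stand for a mouse. No source used here gives their sex, age or strain. Kit encodes c-Kit, the receptor for stem cell factor. The W and Wv alleles are carried in every cell of these mice, so the smooth muscle cells had developed among other cells that also lacked normal c-Kit.

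Guidance cues were first described on growing axons, where they attract or repel the growth cone by acting on the cytoskeleton through small GTPases. Semaphorins signal through plexins, in the secreted class 3 together with neuropilins. Eph receptors are tyrosine kinases bound by ephrins on the surface of a neighbouring cell, netrins act through Dcc, neogenin and Unc5 receptors, and Slits act through Robo receptors. The same families pattern blood vessels, where ephrin-B2 marks arteries, EphB4 marks veins, and semaphorin, netrin and Slit signals steer endothelial and mural cells.

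The libraries held 42040255 to 53863661 counts, of which these genes took 0.335 to 0.370% in WWv and 0.334 to 0.380% in WT. Levels are given as CPM, the counts of a gene scaled to the size of the library. Kit itself stood at 2.09, 0.929, 1.71, 3.01 and 2.25 CPM in WWv libraries 1 to 5 and at 3.19, 4.92, 4.07, 4.40 and 4.02 CPM in WT libraries 1 to 5, and no WWv library reached the lowest of WT (log2 fold change −1.04 ± 0.25 SE, edgeR adjusted p = 0.0122). Neither allele removes the whole gene, so this level is only a loose check of the labels. The smooth muscle markers Acta2, Myh11, Tagln, Cnn1, Smtn, Lmod1 and Myocd summed to 16752 to 20134 CPM in WWv and 9943 to 13005 CPM in WT, and 6 of the 7 were higher in WWv. The library WT 2 stood apart. On the first principal component of all genes it lay at −20.2, among the WWv libraries (−33.4 to −11.5), while the other WT libraries lay at 29.1 to 51.1. Its 10 endothelial markers summed to 363 CPM, against 100.4 to 232 CPM in WWv and 99.3 to 123 CPM in the other WT libraries, and its 8 fibroblast markers to 5792 CPM, against 7142 to 9499 and 9223 to 12058 CPM. None of the endothelial or fibroblast markers was at 0 over all libraries. Of the markers that could be tested, 1 of 9 endothelial genes (Erg) and 4 of 8 fibroblast genes (Pdgfra, Dpt, Lum and Dcn) were lower in WWv, and none of either list was higher. The 8 Schwann and neural markers summed to 47.7 to 62.6 CPM in WWv and 57.6 to 117 CPM in WT, most of it Tubb3, which was lower in WWv (−0.87, adjusted p = 0.00485). None of the 3 leukocyte and 4 mesothelial markers that could be tested passed, and Cd3e was at 0 in every library. Of 15 cell cycle genes 9 were higher in WWv, and they summed to 831 to 978 CPM in WWv, 973 CPM in WT 2 and 582 to 646 CPM in the other WT libraries. The part of other cell types and of cell division in the results that follow was not tested.

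These cultures carried most of the guidance families, and a few genes stood far above the rest. Levels of different genes were compared as CPM per kilobase (kb) of exon. The most abundant were Unc5b, a netrin receptor of the vessel wall, at 83.1 ± 12 CPM per kb in WWv and 60.3 ± 2.51 in WT (SD, n = 5 each), Plxnb2, a receptor for class 4 semaphorins, at 70.4 ± 3.46 and 69.5 ± 2.19, and the secreted repellent Slit3 at 64.5 ± 10.9 and 61.3 ± 21.9. In WWv their order was Unc5b, Plxnb2 and Slit3, and in WT it was Plxnb2, Slit3 and Unc5b. The SDs of the 3 genes overlapped in WWv, as did those of Slit3 and its neighbours in WT. Plxna1 (61.5 ± 5.59 in WWv and 48.4 ± 6.51 in WT), Ntn4 (35.3 ± 5.04 and 23.8 ± 3.78), Efnb1 (29.0 ± 4.55 and 27.2 ± 3.43) and Efnb2 (21.9 ± 0.919 and 25.3 ± 2.53) followed. Sema7a held place 9 in WWv (18.4 ± 4.29) and 14 in WT (8.28 ± 0.781), and Epha4 held place 13 in WWv and 19 in WT. Epha3 held place 16 in WWv and 12 in WT. By the mean of all libraries 12 genes reached 10 CPM per kb, 23 lay between 1 and 10, 16 between 0.1 and 1, and 14 below 0.1.

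**Figure D1:**
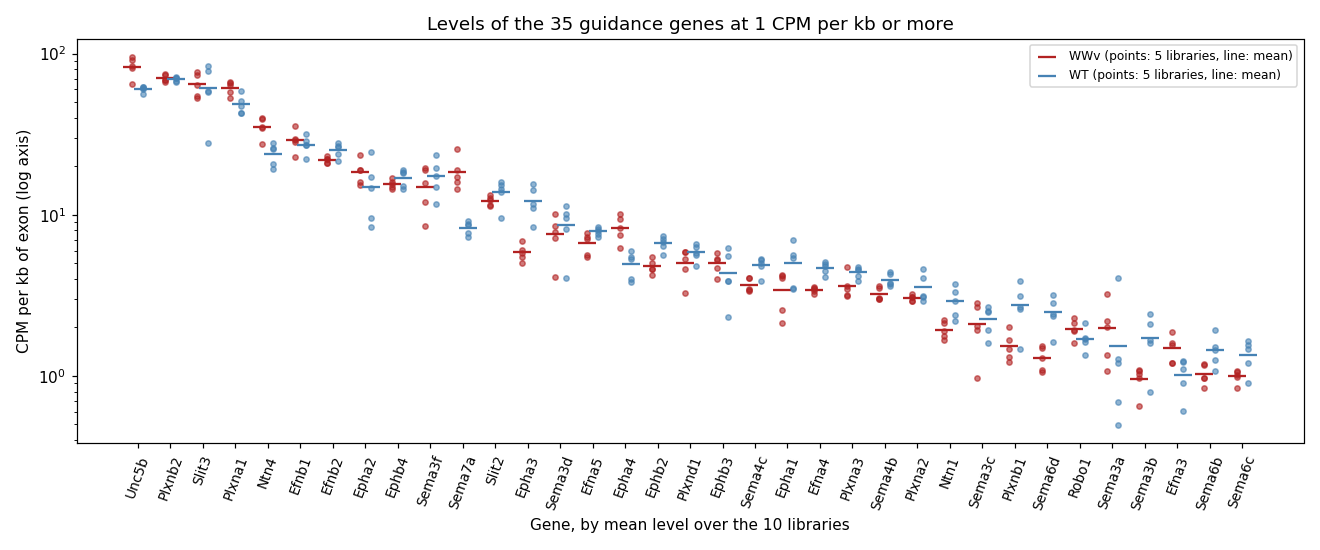
Level of the 35 guidance genes with a mean of at least 1 CPM per kb of exon, on a log axis, in WWv (left, red) and WT (right, blue). Points are the 5 libraries of a group and lines are group means. Unc5b, Plxnb2, Slit3 and Plxna1 have the highest means in both groups, and the means of Sema7a lie at 18.4 in WWv and 8.28 in WT.

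Comparing WWv with WT addressed which of these transcripts differ between cells from Kit mutant and from wild type animals. Signalling by c-Kit in the cultures was not measured. More guidance genes were lower than higher in WWv. Of the 56 genes with enough counts to test, 24 passed an adjusted p under 0.05 in edgeR's quasi-likelihood test over all 15181 tested genes, or 42.9%, against a background of 28.2% of all tested genes and 29.2% of tested protein coding genes. Lower were 17 (30.4%, background 15.4%), and higher were 7 (12.5%, background 12.8%). The median log2 fold change of the tested guidance genes was −0.22, against −0.01 over all tested genes, and their median absolute change was 0.40 against 0.19. In 12 of the 24 no WWv library overlapped a WT library (21.4% of those tested, background 15.9%). Without TMM factors, that is with library size only, the split was 5 higher and 22 lower, and that of all genes went to 983 higher and 3599 lower, against 1940 and 2334 with TMM. Without WT 2 there were 11 higher and 19 lower guidance genes (19.6 and 33.9%), against 22.7 and 23.5% of all genes tested in that fit. Without WWv 2 there were 5 and 11 (8.93 and 19.6%), against 8.34 and 11.1% of all genes. In these bulk cultures fewer cells of a type and less RNA per cell cannot be told apart.

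The higher genes were Sema7a, Plxna1, Plxna4, Epha4, Ntn4, Unc5b and Robo2. The lower ones were Sema3b, Sema4b, Sema4c, Sema4g, Sema5a, Sema6a, Sema6b, Sema6c, Sema6d, Plxnb1, Efna1, Efna4, Efnb2, Epha3, Ephb2, Ephb6 and Ntn1. By level, of the 12 tested genes at 10 CPM per kb or more 4 were higher and 1 was lower in WWv, where 21.1% of all tested genes at these levels were higher and 10.9% lower. Between 1 and 10 CPM per kb, 1 of 23 was higher (Epha4) and 11 were lower, against 13.1 and 16% of all tested genes. Between 0.1 and 1, 2 of 16 were higher and 5 lower, against 4.69 and 19.5%. None of the 5 tested below 0.1 passed, against 3.21 and 12.3%. The other 32 tested genes did not pass, 13 of them with a value above 0 and 19 below. Sema5b, Epha5, Epha6, Epha8, Epha10, Ephb1, Ntn5, Slit1 and Unc5d were not tested. They held 1 to 83 counts over all libraries and at most 0.438 CPM in any library. One tested gene, Sema3g, met the count minimum in all libraries of WT only, and it did not pass the test (−0.96, adjusted p = 0.141). Without WWv 3, which held 0.601 CPM of Sema3g, it passed as lower, at −1.68 (adjusted p = 0.00644).

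**Figure D2:**
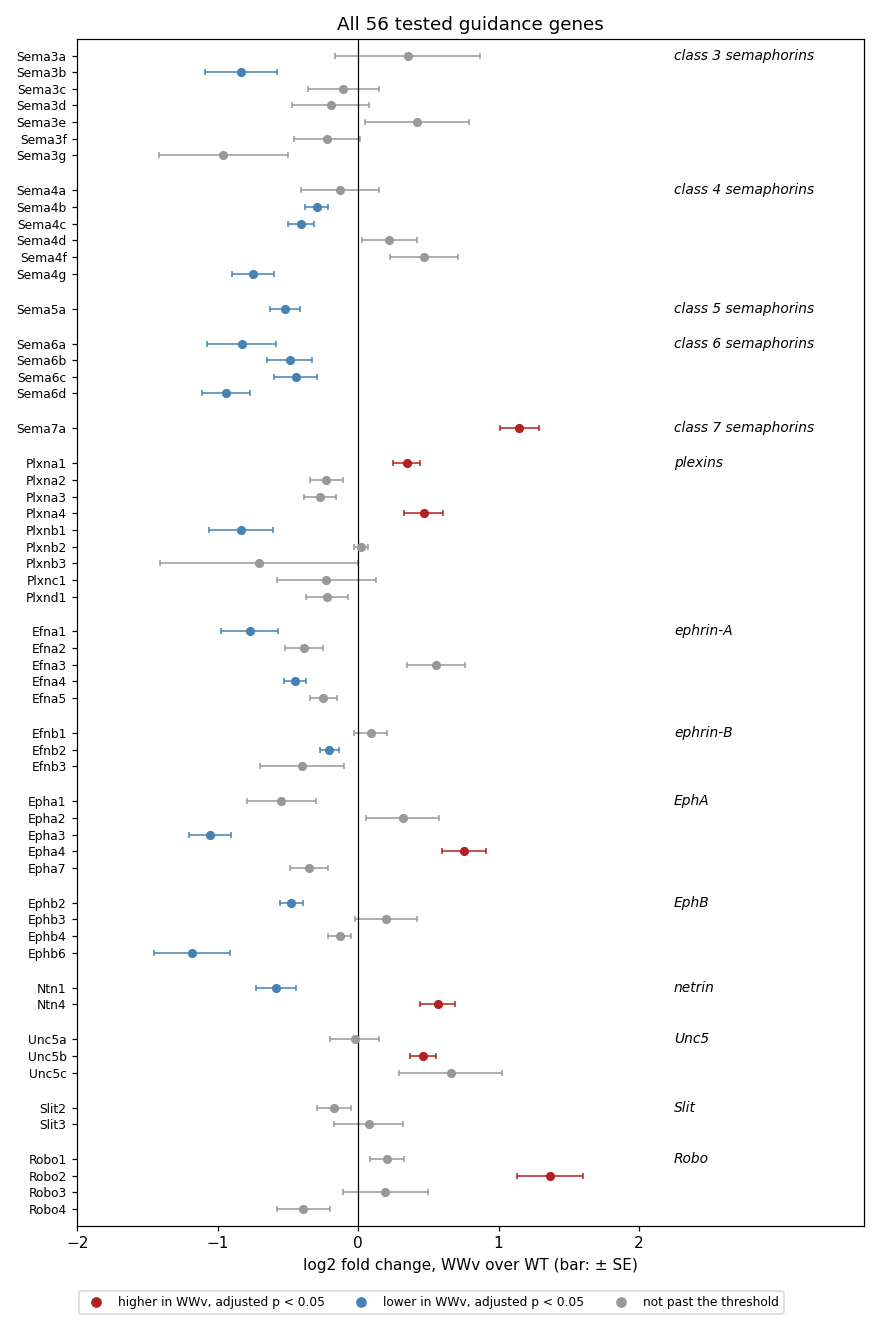
Log2 fold change of WWv over WT for the 56 tested guidance genes, by family. Points are edgeR estimates with bars of ± SE, red for the 7 genes higher and blue for the 17 lower at an adjusted p under 0.05, and grey for the others. All 4 class 6 semaphorins lie left of 0, and Epha3 and Epha4 lie on opposite sides.

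Promoters are shown for Sema7a and for the related receptors Epha3 and Epha4, which changed in opposite directions. They are the 3 with the largest changes among genes past the threshold whose groups did not overlap and whose only RefSeq start is also the GENCODE start. The windows are the 250 bases before the start, from RefSeq on GRCm38.p6, 5′ to 3′ on the gene's strand, at chr9:57939862-57940111 (plus strand) for Sema7a, chr1:77515089-77515338 (minus strand) for Epha4 and chr16:63864176-63864425 (minus strand) for Epha3. Capitals mark matches, on either strand, to AP-1 (TGANTCA), the ACGTG form of the hypoxia response core, TEAD (GGAATG), the SMAD element (CAGAC) and the CArG box of serum response factor. Other forms of the hypoxia response core were not searched, so matches and shares of that core cover ACGTG alone.
Sema7a: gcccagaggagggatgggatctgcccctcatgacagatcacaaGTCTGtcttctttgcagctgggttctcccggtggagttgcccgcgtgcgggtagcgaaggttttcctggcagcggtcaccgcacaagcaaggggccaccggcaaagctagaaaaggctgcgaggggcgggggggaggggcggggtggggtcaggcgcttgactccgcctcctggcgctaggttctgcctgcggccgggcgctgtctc
Epha4: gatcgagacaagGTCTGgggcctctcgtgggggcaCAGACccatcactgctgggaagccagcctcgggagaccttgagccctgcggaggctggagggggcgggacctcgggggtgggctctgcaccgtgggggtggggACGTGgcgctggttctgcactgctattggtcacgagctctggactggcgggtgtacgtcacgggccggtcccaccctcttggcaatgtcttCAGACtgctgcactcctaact
Epha3: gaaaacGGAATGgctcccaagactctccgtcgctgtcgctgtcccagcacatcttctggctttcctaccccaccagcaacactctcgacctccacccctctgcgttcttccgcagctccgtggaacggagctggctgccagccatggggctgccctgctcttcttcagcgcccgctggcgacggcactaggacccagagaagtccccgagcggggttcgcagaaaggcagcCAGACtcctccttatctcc
The Sema7a window held 1 SMAD match, 207 bases before the start. The Epha4 window held SMAD matches 238, 215 and 21 bases before the start and 1 hypoxia response core at 112 bases, and the Epha3 window held 1 SMAD match at 19 and 1 TEAD match at 244 bases. No motif overlapped another, and no window held an AP-1 or CArG match. Of all 32841 RefSeq windows of this length 42.2% held a SMAD match, 16.6% a hypoxia core, 12.6% a TEAD match, 6.75% an AP-1 match and 1.47% a CArG box. Among the 19 genes past the threshold with a window, SMAD matches stood in 3 of 5 that were higher and 7 of 14 that were lower, hypoxia cores in 1 and 4, TEAD matches in 0 and 3, AP-1 matches in 0 and 1, and CArG boxes in 0 and 0. The median GC content was 66.0% in those 19 windows and 52.4% in all windows.

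Of 19 tested semaphorins 9 were lower and 1 was higher in WWv, the higher one being Sema7a, against 15.4% lower and 12.8% higher over all tested genes. Sema7a (ENSMUSG00000038264.8, chromosome 9, 57940112 to 57962865, plus strand, mm10) encodes a semaphorin held to the membrane by a lipid anchor, which binds integrin β1 and plexin C1. It stood at 47.4, 62.1, 83.9, 56.9 and 52.6 CPM in WWv libraries 1 to 5 and at 28.3, 25.2, 28.9, 24 and 30.1 CPM in WT libraries 1 to 5. Every WWv library lay above every WT library, WWv 3 highest, and the WT libraries were close to each other (2.22-fold, log2 fold change 1.15 ± 0.14 SE, adjusted p = 0.000548). It was the 1 guidance gene that still passed against a minimum change of 1.5-fold. Of its receptor genes Itgb1 was higher (3349.8 ± 159 CPM in WWv and 2223 ± 135 CPM in WT, log2 fold change 0.59 ± 0.06 SE, adjusted p = 0.000351). Plxnc1 averaged 0.905 ± 0.447 CPM in WWv and 1.06 ± 0.240 CPM in WT and did not pass (−0.23, adjusted p = 0.657).

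All 4 class 6 semaphorins, transmembrane ligands of the A plexins, were lower in WWv, against 15.4% of all tested genes. All 4 passed under each scaling and in DESeq2. With limma-voom or no low-count filter 2 passed, Sema6b being lost at −0.46 and −0.49 and Sema6c at −0.42 and −0.44. With a block for the replicate number, which did not pair the libraries, only Sema6d passed. Sema6d (ENSMUSG00000027200.17, chromosome 2, 124089969 to 124667770, plus strand), a ligand of plexin A1 in the developing heart, had the largest change of the class. It stood at 11.6, 15.8, 11.1, 13.7 and 16.1 CPM in WWv libraries and at 29.9, 17.2, 25.8, 33.4 and 24.9 CPM in WT libraries, and the groups did not overlap, with WT 2 the lowest of WT (1.92-fold lower, −0.94 ± 0.17 SE, adjusted p = 0.00315). Sema6a, a ligand of plexins A2 and A4, stood at 4.12, 2.74, 3.56, 3.34 and 1.81 CPM in WWv libraries, against 4.09, 8.62, 4.62, 5.35 and 4.94 CPM in WT libraries. WT 2 held the most, and WWv 1 and WT 1 touched (−0.83, adjusted p = 0.0287). Sema6b, a plexin A4 ligand, averaged 4.08 ± 0.589 CPM in WWv and 5.73 ± 1.28 CPM in WT (−0.49, adjusted p = 0.0427), and Sema6c 5.92 ± 0.552 and 8.06 ± 1.79 CPM (−0.44, adjusted p = 0.0492), both with overlapping groups. Sema6d kept its call whichever library was left out. The call of Sema6a was lost without WWv 2 (−0.79), WWv 4 (−0.87) or WT 4 (−0.84), that of Sema6b without WWv 1 (−0.42), WWv 2 (−0.47), WWv 3 (−0.47), WWv 4 (−0.54), WT 1 (−0.47) or WT 3 (−0.49), and that of Sema6c on leaving out any single library other than WT 2 (−0.48 to −0.36).

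Of the 6 class 4 semaphorins, transmembrane ligands mostly of the B plexins, 3 were lower, against 15.4% of all tested genes. Sema4g (chromosome 19, 44989101 to 45003397, plus strand), a plexin B2 ligand, stood at 3.64, 3.60, 4.11, 3.27 and 3.97 CPM in WWv libraries, below the 6.78, 4.25, 6.28, 7.87 and 6.09 CPM of WT libraries, without overlap (−0.75, adjusted p = 0.00496). Sema4c, another plexin B2 ligand, averaged 16.8 ± 1.65 CPM in WWv and 22.3 ± 2.69 CPM in WT, and WT 2 at 17.8 CPM lay within the WWv range (−0.41, adjusted p = 0.0104). Sema4b was lower by a small step without overlap (16.9 to 20.4 CPM in WWv and 20.5 to 25.0 CPM in WT, −0.30, adjusted p = 0.0205), a call lost without WWv 2 (−0.27), WWv 4 (−0.28) or WT 3 (−0.26). Sema4a, Sema4d and Sema4f were at or under 1.30 CPM in every library and did not pass. Sema5a, a transmembrane semaphorin with thrombospondin repeats, stood at 10.1, 13.6, 10.4, 11.9 and 11.3 CPM in WWv libraries and at 17.1, 17.7, 17.3, 17.2 and 12.9 CPM in WT libraries, where WT 5 alone lay within the WWv range (−0.52, adjusted p = 0.00565).

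Class 3 semaphorins, the secreted ones, passed in 1 of 7 members, which was lower, where 15.4% of all tested genes were lower. Sema3b, a neuropilin ligand, averaged 4.60 ± 0.865 CPM in WWv and 8.19 ± 2.92 CPM in WT, with WT 2 at 3.77 CPM inside the WWv range of 3.10 to 5.22 CPM (−0.83, adjusted p = 0.0336). This call was lost with limma-voom (−0.77) and on leaving out any single library other than WWv 5 or WT 2 (−0.88 to −0.68). Sema3f, a neuropilin 2 ligand and the most abundant semaphorin per kb over all libraries, held 77.5 ± 24 CPM in WWv and 90.5 ± 23.2 CPM in WT and did not pass (−0.22, adjusted p = 0.501). Sema3d, Sema3a, Sema3e and Sema3c share a stretch of 5.35 Mb on chromosome 5, and none of the 4 passed. Sema3a, the classical growth cone repellent, stood at 44.7, 27.8, 18.8, 30.4 and 14.9 CPM in WWv libraries and at 16.7, 56.2, 17.6, 9.54 and 6.91 CPM in WT libraries. Sema3e, which binds plexin D1 without a neuropilin, stood at 10.5, 8.92, 7.70, 10.5 and 8.17 CPM in WWv libraries and at 5.36, 16.2, 4.74, 4.17 and 3.81 CPM in WT libraries. In both genes WT 2 was the highest of all libraries, and the other WT libraries lay low. Without WT 2 both passed, Sema3a at 1.10 (adjusted p = 0.0223) and Sema3e at 1.02 (adjusted p = 0.000164). Sema3c (−0.10) and Sema3d (−0.19), known from the cardiac outflow tract and the pulmonary veins, overlapped widely between the groups.

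Among the 9 plexins, Plxna1 and Plxna4 were higher and Plxnb1 was lower in WWv, against 12.8% higher and 15.4% lower over all tested genes. Plxna1 (chromosome 6, 89316314 to 89362620, minus strand), the signalling partner of neuropilins for class 3 semaphorins and a receptor of Sema6d, stood at 579, 595, 599.8, 525 and 483 CPM in WWv libraries and at 429, 529, 457, 388 and 386 CPM in WT libraries. WT 2, the highest of WT, lay above WWv 4 and WWv 5 (0.35 ± 0.10 SE, adjusted p = 0.0219). Plxna4, another A plexin, averaged 14.4 ± 2.63 CPM in WWv and 10.4 ± 1.48 CPM in WT, with WWv 1 at 10.2 CPM inside the WT range (0.47, adjusted p = 0.0306). The call of Plxna1 was lost without WWv 2 (0.32), WWv 3 (0.32), WT 1 (0.34), WT 4 (0.30) or WT 5 (0.30), and that of Plxna4 without WWv 2 (0.41), WWv 3 (0.42), WWv 4 (0.43), WT 1 (0.42), WT 3 (0.41) or WT 4 (0.48). With library size only both were lost, at 0.26 and 0.38. Plxnb1, the receptor of Sema4d, stood at 11.6, 16.1, 14.2, 12.6 and 19.4 CPM in WWv libraries and at 25.8, 14.0, 25.0, 37.0 and 30.2 CPM in WT libraries. WT 2 lay with WWv and the other WT libraries above it (−0.84 ± 0.23 SE, adjusted p = 0.0194). Plxnb2 did not pass, at 543 ± 26.7 CPM in WWv and 536 ± 16.9 CPM in WT (0.02 ± 0.05 SE, adjusted p = 0.81), a value that turned below 0 under upper quartile scaling and library size only. Plxna2 (−0.23), Plxna3 (−0.27), Plxnd1 (−0.22), Plxnb3 (−0.71) and Plxnc1 did not pass. Plxna1, Plxna4 and Plxnb1 overlap noncoding genes on the opposite strand, as do Sema4c and Efna4. The overlaps took 970 of 9054, 110 of 14103, 257 of 9592, 334 of 4593 and 168 of 1599 exon bases, in that order. Without a stated strand setting the reads in these stretches are uncertain.

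**Figure D3:**
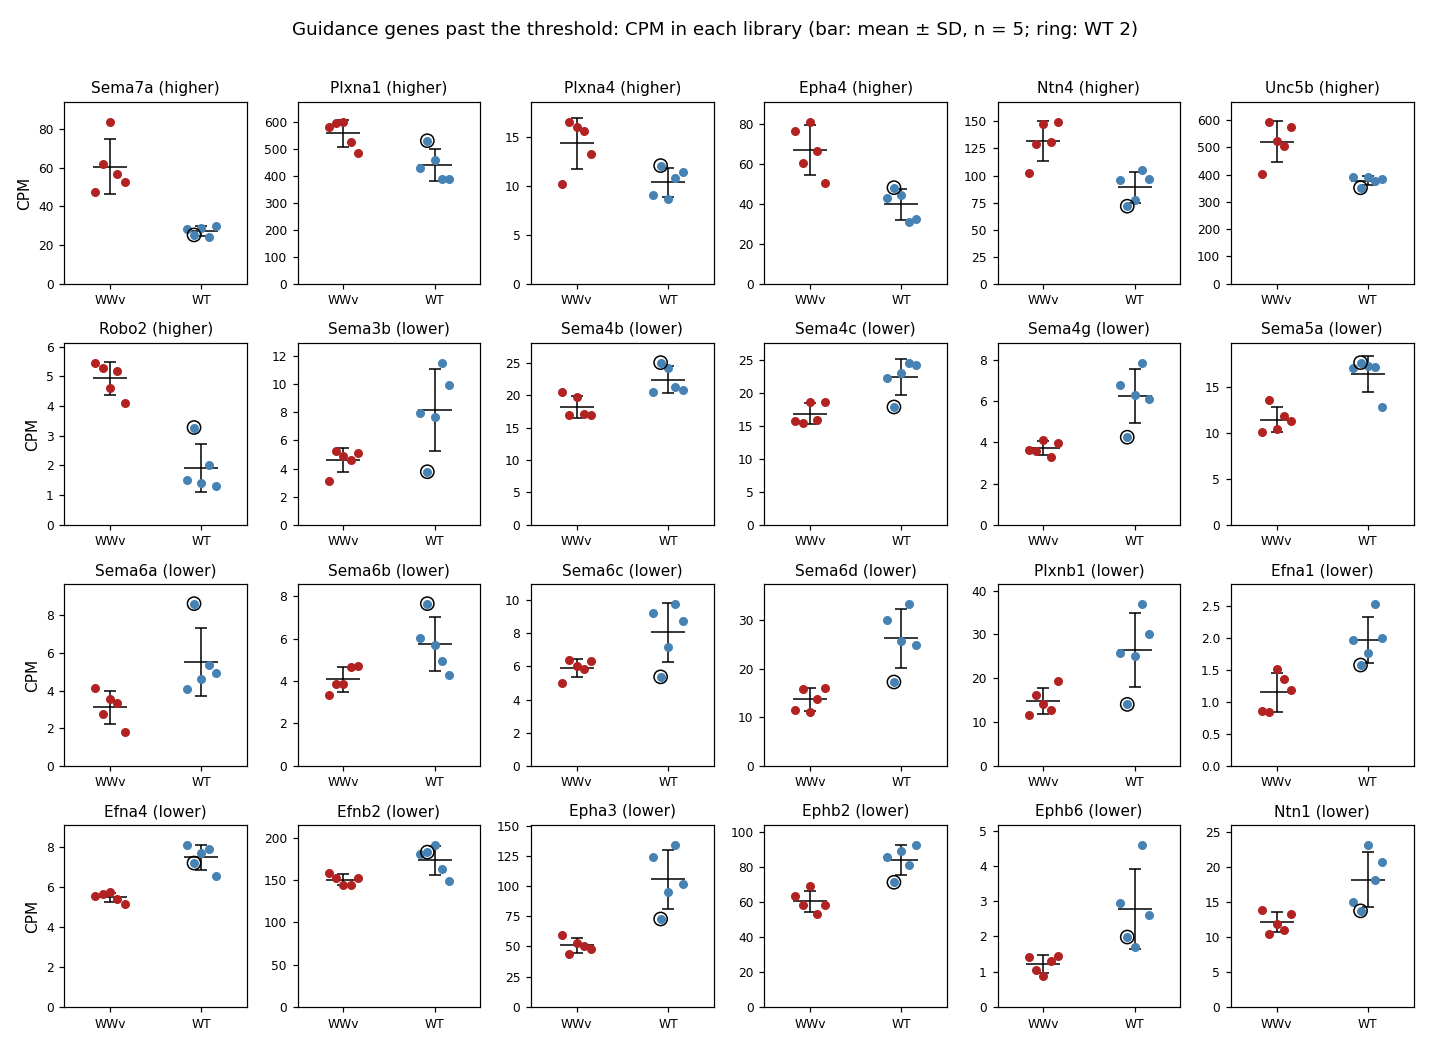
CPM in each library of the 24 guidance genes past the threshold, WWv (red) left of WT (blue), on axes that start at 0. Bars are means ± SD of 5 libraries, and the ring marks WT 2. For Sema7a the WWv libraries lie at 47.4 to 83.9 CPM and the WT libraries at 24 to 30.1 CPM.

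Of the 17 tested Eph receptors and ephrins 6 were lower and 1 was higher, against 15.4% and 12.8% over all tested genes. Epha3 (ENSMUSG00000052504.7, chromosome 16, 63543534 to 63864175, minus strand), a receptor needed for the endocardial cushions of the mouse heart, stood at 59.7, 43.4, 52.9, 50.7 and 47.7 CPM in WWv libraries and at 124, 72.7, 95.3, 134 and 102 CPM in WT libraries. All WWv libraries lay below all WT libraries, of which WT 2 was the lowest (2.08-fold lower, −1.05 ± 0.15 SE, adjusted p = 0.00115). Epha4 (ENSMUSG00000026235.14, chromosome 1, 77367185 to 77515088, minus strand), which binds ephrins of both classes, stood at 76.2, 60.3, 81.1, 66.5 and 50.2 CPM in WWv libraries and at 42.7, 48.0, 44.3, 30.8 and 32.4 CPM in WT libraries. All WWv libraries lay above all WT libraries, WWv 5 and WT 2 nearest to each other (1.69-fold higher, 0.75 ± 0.15 SE, adjusted p = 0.00583). Per kb the ratio of Epha4 to Epha3 within a library was 1.38, 1.5, 1.66, 1.42 and 1.14 in WWv libraries 1 to 5 and 0.371, 0.713, 0.501, 0.248 and 0.344 in WT libraries 1 to 5. Epha4 thus stood above Epha3 in every WWv library and below it in every WT library, a ratio chosen after the values of both genes were seen and so given without a test. Epha2, the most abundant EphA receptor, had 71.9 to 109 CPM in WWv and 39.0 to 115 CPM in WT and did not pass (0.32, adjusted p = 0.381). Epha1 (−0.55) and Epha7 (−0.35) did not pass either.

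Ephb2, an EphB receptor with a role in boundary formation, stood at 63.1, 58.0, 68.7, 53.1 and 58.3 CPM in WWv libraries and at 85.6, 71.0, 89.0, 80.9 and 92.5 CPM in WT libraries. The groups did not overlap, and WT 2 again was the nearest of WT to WWv (−0.48 ± 0.08 SE, adjusted p = 0.00286). Ephb6, a member without kinase activity, was the gene with the largest fall, at 1.42, 1.04, 0.866, 1.31 and 1.45 CPM in WWv libraries, against 2.96, 1.98, 1.70, 4.61 and 2.61 CPM in WT libraries (2.27-fold lower, −1.18 ± 0.27 SE, adjusted p = 0.00957). WT 4 held the most and the groups did not overlap. Ephb4, the vein marker and the most abundant EphB receptor, had 72.0 ± 4.28 CPM in WWv and 78.9 ± 9.68 CPM in WT (−0.13, adjusted p = 0.246), and Ephb3 had 33.2 ± 4.66 and 29.0 ± 10.2 CPM (0.20, adjusted p = 0.527). Efnb2, the arterial ligand of EphB4, stood at 159, 153, 144, 145 and 153 CPM in WWv libraries and at 180.5, 183, 192, 163 and 148 CPM in WT libraries, where WT 5 overlapped WWv. Its fall was the smallest of all that passed (1.15-fold, −0.20 ± 0.07 SE, adjusted p = 0.0466), and it was lost with RLE scaling (−0.20), DESeq2 (−0.19), limma-voom (−0.20), no low-count filter (−0.20) and on leaving out any single library other than WT 5 (−0.23 to −0.17). Efnb1, the most abundant ephrin per kb, did not pass (78.3 to 122 CPM in WWv and 76.3 to 109 CPM in WT, 0.09), nor did Efnb3 (−0.40, adjusted p = 0.336).

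The ephrin-A genes Efna1, Efna3 and Efna4 lie next to each other within 66.3 kb on chromosome 3. Efna4 stood at 5.51, 5.62, 5.73, 5.38 and 5.14 CPM in WWv libraries and at 8.10, 7.18, 7.66, 7.88 and 6.54 CPM in WT libraries, tight in both groups and without overlap (−0.45 ± 0.08 SE, adjusted p = 0.00275). Efna1, first found as a gene induced by tumour necrosis factor in human endothelial cells, was also lower without overlap (0.836 to 1.52 CPM in WWv and 1.57 to 2.53 CPM in WT, −0.77, adjusted p = 0.0169). Efna3, between them, had 3.62 ± 0.705 CPM in WWv and 2.46 ± 0.650 CPM in WT and did not pass (0.55, adjusted p = 0.0662), although DESeq2 called it higher (0.56). Efna5, the most abundant ephrin-A, had 26.8 ± 4.11 CPM in WWv and 31.8 ± 1.85 CPM in WT (−0.25, adjusted p = 0.0809) and did not pass. Efna2 also missed the threshold (−0.38, adjusted p = 0.0559) but was called lower with upper quartile scaling (−0.40), library size only (−0.47), a filter of 1 CPM in 5 libraries (−0.41) and DESeq2 (−0.37).

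Both tested netrins passed, in opposite directions, where 28.2% of all tested genes passed. Ntn4 (chromosome 10, 93640681 to 93747207, plus strand), a netrin of basement membranes, stood at 103, 129, 147, 131 and 149.9 CPM in WWv libraries and at 95.5, 71.6, 76.9, 105 and 96.5 CPM in WT libraries. WWv 1 lay just below WT 4, and the other WWv libraries lay above all of WT (1.48-fold higher, 0.57 ± 0.12 SE, adjusted p = 0.00814). Ntn1 (chromosome 11, 68209364 to 68400823, minus strand), the axon attractant of the ventral midline, stood at 13.9, 10.5, 11.9, 11.1 and 13.4 CPM in WWv libraries and at 15.1, 13.8, 23.2, 18.2 and 20.8 CPM in WT libraries. WT 2, the lowest of WT, lay just below WWv 1 (1.5-fold lower, −0.59 ± 0.14 SE, adjusted p = 0.0127). Within a library Ntn4 per kb was 12.4, 20.6, 20.7, 19.9 and 18.8 times Ntn1 in WWv libraries 1 to 5 and 10.6, 8.74, 5.55, 9.67 and 7.78 times in WT libraries 1 to 5, again a ratio chosen after the values were seen.

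Unc5b (ENSMUSG00000020099.8, chromosome 10, 60762593 to 60831581, minus strand), the netrin receptor of arterial and sprouting endothelium, stood at 403, 594, 525, 506 and 574 CPM in WWv libraries and at 389, 352, 389, 375 and 382 CPM in WT libraries. Every WWv library lay above every WT library, although WWv 1 did so by little, and the spread was wider in WWv (1.38-fold, 0.46 ± 0.09 SE, adjusted p = 0.00537). Unc5c stood at 11.4, 9.75, 8.59, 8.27 and 5.88 CPM in WWv libraries and at 3.32, 12.7, 4.13, 4.19 and 3.41 CPM in WT libraries. WT 2 held more than any other library, and the remaining WT libraries lay below all of WWv. The gene did not pass with all libraries (0.66, adjusted p = 0.198) and passed without WT 2 at 1.22 (adjusted p = 0.000308). Unc5a, near 2 CPM, did not pass (−0.02). Of the attractive receptors Dcc had 5.30 ± 1.22 CPM in WWv and 9.63 ± 4.18 CPM in WT (−0.86, adjusted p = 0.0758), and neogenin (Neo1) had 319 ± 40.6 and 259 ± 34.8 CPM (0.30, adjusted p = 0.0606). For Dcc WT 2 was the lowest of all libraries, at 3.00 CPM. WWv libraries held 3.46 to 6.80 CPM of Dcc, and the other WT libraries held 8.15 to 13.1 CPM.

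Robo2 (ENSMUSG00000052516.19, chromosome 16, 73891839 to 74411825, minus strand), a Slit receptor, had the largest rise of the tested guidance genes, at a low level. It stood at 5.46, 5.29, 4.60, 5.19 and 4.11 CPM in WWv libraries and at 1.52, 3.28, 1.40, 2.02 and 1.32 CPM in WT libraries. The groups did not overlap, and WT 2 was the highest of WT (2.58-fold higher, 1.37 ± 0.24 SE, adjusted p = 0.0026). Robo1, the more abundant receptor, had 26.3 to 37.5 CPM in WWv and 22.3 to 35.0 CPM in WT and did not pass (0.20, adjusted p = 0.226). Robo2 per kb was 0.113 to 0.202 of the Robo1 level in WWv libraries and 0.0390 to 0.143 in WT libraries, so Robo1 stood above Robo2 in each. Robo3 (0.19) and the endothelial Robo4 (−0.39) were at or near 1 CPM or below and did not pass. Both tested Slit genes were abundant and did not pass. Slit2 stood at 292, 313, 323, 289 and 339.6 CPM in WWv libraries and at 354, 241, 365, 404 and 392 CPM in WT libraries (−0.17, adjusted p = 0.3). Slit3 stood at 320.5, 387, 467, 333 and 449.5 CPM in WWv libraries and at 358, 170.0, 349, 471 and 511 CPM in WT libraries, with WT 2 the lowest of all libraries (0.07, adjusted p = 0.844). The value of Slit3 turned below 0 without WT 2 and with library size only.

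Of the other genes of these pathways, 19 co-receptors and 40 intracellular effectors were listed, and 52 of them could be tested. Higher were 9 and lower were 4, or 25.0% in all, against the background of 28.2%. By direction that background was 12.8% higher and 15.4% lower. Higher among the co-receptors were Itgb1, Sdc3 and Rgmb, a neogenin ligand (46.4 ± 2.53 CPM in WWv and 35.5 ± 3.95 CPM in WT, 0.39, adjusted p = 0.00438). Lower were Chl1, an adhesion molecule of the L1 family (1.02 ± 0.574 and 5.24 ± 2.96 CPM, −2.36, adjusted p = 0.0146), and Draxin, a secreted partner of netrin and Dcc (0.387 ± 0.113 and 1.16 ± 0.410 CPM, −1.58, adjusted p = 0.00387). The neuropilins Nrp1 (0.08) and Nrp2 (0.34) did not pass. Of the effectors Rnd1, a GTPase that binds plexins, was higher (91.4 ± 9.10 CPM in WWv and 52.7 ± 10.0 CPM in WT, 0.79, adjusted p = 0.00165), as was Enah, an actin regulator of the family tied to Robo in Drosophila (103 ± 10.1 and 66.3 ± 13.2 CPM, 0.64, adjusted p = 0.00434), along with Mical2, Rasa1, Fyn and Ablim1. Srgap1, a GTPase-activating protein of Slit and Robo signals, was lower (−0.46, adjusted p = 0.0207). Tiam1, an exchange factor for Rac downstream of Eph and ephrin signals, was also lower (−0.45, adjusted p = 0.0393). The call of Chl1 was lost with limma-voom (−2.31). The call of Srgap1 was lost without WWv 3 (−0.41), WWv 4 (−0.45) or WT 3 (−0.43), and that of Tiam1 with limma-voom (−0.43) or on leaving out any single library other than WWv 5 or WT 2 (−0.49 to −0.40). Without WWv 1 the higher partners numbered 14, where 11.7% of all genes tested in that fit were higher. Without WWv 3, WWv 4 or WT 3 the lower partners numbered 2, where 11.3, 12 and 11.3% of all tested genes were lower.

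Several of these values turned on WT 2. Of the 17 genes past the threshold as lower it was the lowest WT library in 10, and of the 7 higher ones the highest WT library in 4. These counts cover only guidance genes that passed with WT 2 counted among WT, and the same counts were not made for all called genes. Leaving WT 2 out took the calls over all tested genes from 4274 to 7127, so WT 2 moved calls well beyond the guidance genes. The counts by WT 2 leave out Sema3a, Sema3e, Unc5c and Epha2, where WT 2 lay above all of WWv. Leaving WT 2 out added Sema3a, Sema3e, Unc5c and Epha2, at 0.57 (adjusted p = 0.0393), to the higher genes. To the lower ones it added Epha1 at −0.65 (adjusted p = 0.0402), Ephb4 at −0.19 (adjusted p = 0.0458) and Slit2 at −0.28 (adjusted p = 0.00348), while Efnb2 was lost. Other libraries decided a few calls. Plxna3 passed as lower without WWv 1, at −0.39 (adjusted p = 0.00616), and Epha7 without WWv 1, at −0.44 (adjusted p = 0.0384), or WT 1, at −0.43 (adjusted p = 0.0368). Efna2 passed as lower without WT 3, at −0.45 (adjusted p = 0.0394), and Efna5 without WWv 4, at −0.31 (adjusted p = 0.0482). WT 2 was also the library with the most endothelial marker counts, and their part in these values was not tested.

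**Figure D4:**
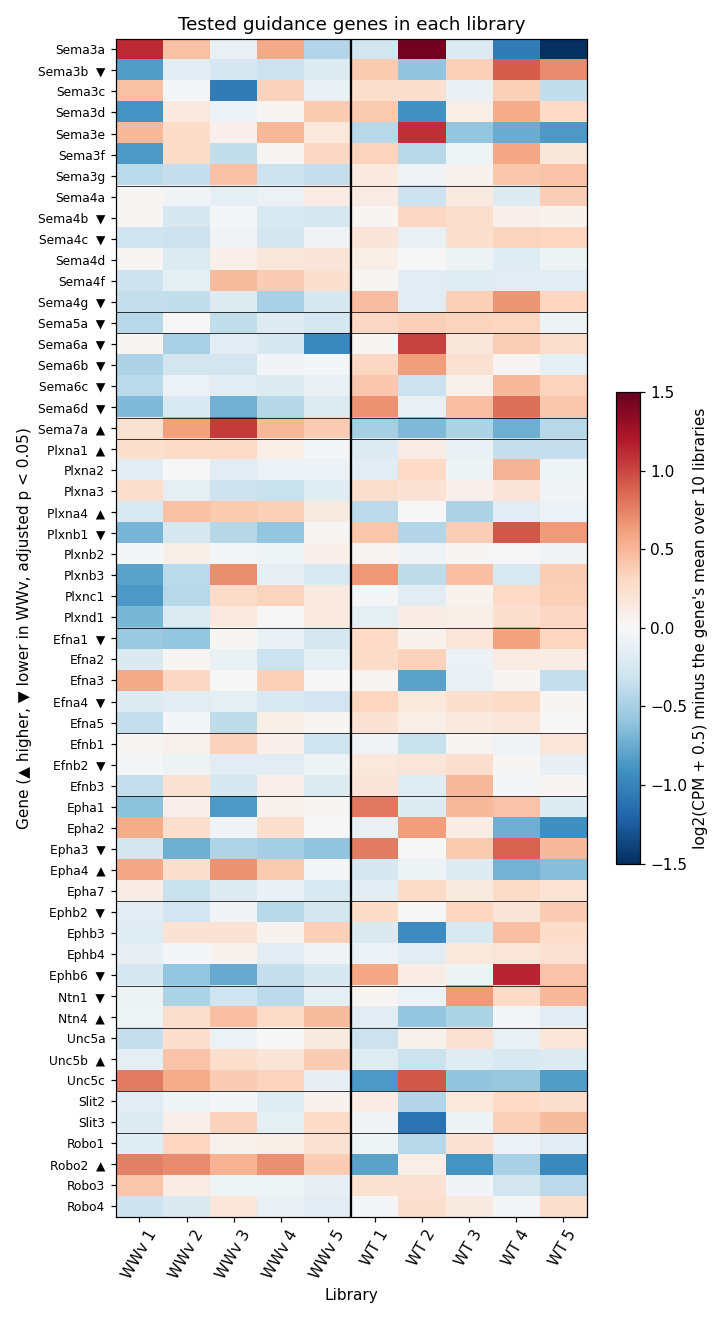
Level of the 56 tested guidance genes in each library, as log2(CPM + 0.5) minus the mean of the gene over the 10 libraries, with WWv left of WT and families set apart by lines. Triangles mark genes past the threshold. In WT 2 the genes Sema3a, Sema3e and Unc5c are high and Slit3 and Ephb3 are low, unlike the other WT libraries.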

How the data were processed

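RNA of 10 cultures was sequenced with a Nugen Universal Plus mRNA kit, per the labels' protocols. The authors deposited raw counts per gene under versioned Ensembl IDs, with no normalization. The tools named are bcl2fastq (2.17), Trim Galore (0.4.3) and STAR (2.5.2a), with the build mm10, per the submitters' processing notes. How genes were counted, with which annotation and strand setting, was not given in the sources used here. Symbol, position and exon length of each gene were those of GENCODE M21 (GRCm38, the same assembly as mm10), joined on the ID without its version for 54409 genes.

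WWv was compared with WT in edgeR 4.0.16 (R 4.3.3, quasi-likelihood, two-sided, genotype as the only term, TMM scaling, filterByExpr at a minimum count of 10), with Benjamini-Hochberg adjustment over 15181 genes, a threshold of 0.05 and SE taken as the log2 fold change over the root of F. The common biological coefficient of variation was 0.161. CPM used the TMM factors, and levels between genes were divided by exon length, all exons of a gene merged. Principal components used log2 CPM with a prior count of 2. The fit was also run on simulated counts with a fixed dispersion and no library set apart. That differs from these data, so the run does not bear on the calls reported here.

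Every gene past the threshold was named, with the most abundant gene of each family and the 4 largest changes of each partner list; other genes were named after their values were seen. The gene families, lists and tests were chosen with earlier results of these data known. Alternatives were RLE, upper quartile or library size scaling, other filters and thresholds, a robust fit, limma-voom (3.58.1), DESeq2 (1.42.0), a block for the replicate number, each library left out in turn, and WT 2 and WWv 1 left out together.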

Additional observations from a re-analysis of the deposited data

Results flagged for a closer look

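Some values lay far from the other 4 libraries of their group by Dixon's criterion, which chance meets in about 1 of 20 groups. Of 130 groups examined (65 genes, namely the 56 tested guidance genes, 8 partners (the 4 of each list with the largest changes past the threshold) and Kit, in 2 genotypes) 12 met it, 6 of them through WT 2. The WT 2 values were high for Sema3a (56.2 CPM in WT 2, against 6.91 to 17.6 CPM in the other WT libraries), Sema3e (16.2 CPM in WT 2, against 3.81 to 5.36 CPM in the other WT libraries), Unc5c (12.7 CPM in WT 2, against 3.32 to 4.19 CPM in the other WT libraries), Sema6a (8.62 CPM in WT 2, against 4.09 to 5.35 CPM in the other WT libraries) and Rgmb (42.4 CPM in WT 2, against 32.7 to 35.3 CPM in the other WT libraries). The WT 2 value was low for Tiam1 (60.6 CPM in WT 2, against 98.3 to 105 CPM in the other WT libraries). WT 5 was low for Sema5a (12.9 CPM in WT 5, against 17.1 to 17.7 CPM in the other WT libraries) and for Srgap1 (24.5 CPM in WT 5, against 33.8 to 35.6 CPM in the other WT libraries). Sema4f was high in WT 1 (0.814 CPM in WT 1, against 0.643 to 0.658 CPM in the other WT libraries). Before scaling these were only 39 counts in WT 1 and 28 to 34 counts in the other WT libraries. Among WWv libraries, WWv 1 was low for Sema3b (3.10 CPM in WWv 1, against 4.63 to 5.22 CPM in the other WWv libraries) and for Rnd1 (75.9 CPM in WWv 1, against 92.7 to 99.4 CPM in the other WWv libraries), and WWv 3 was high for Sema3g (0.601 CPM in WWv 3, against 0.112 to 0.151 CPM in the other WWv libraries).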

How the results depend on the processing

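With 1 library left out the higher guidance genes numbered 5 to 11 (8.93 to 19.6%, against 8.34 to 22.7% of all tested genes). The lower ones numbered 11 to 19 (19.6 to 33.9%, against 11.1 to 23.5%). The higher partners numbered 7 to 14, the lower partners 2 to 6 and all calls 3013 to 7127. Of the 24 called guidance genes 16 passed in all 10 of these fits, a count not made for all called genes. At an adjusted p under 0.01 there were 5 higher and 7 lower guidance genes (8.93 and 12.5%, against 5.53 and 6.51% of all tested genes). There were also 1 lower partner and 1827 calls. Against a 1.5-fold minimum there were 1 higher guidance gene (Sema7a, 1.79%, against 0.25% of all tested genes) and 0 lower (against 1.1%). There were 0 higher and 0 lower partners and 205 calls in edgeR. Kit (−1.04) did not pass under either threshold. Library size only gave 7 lower partners, DESeq2 7 and limma-voom 2, where 23.7, 14.3 and 14.2% of all tested genes were lower. Without WT 2 and WWv 1 together there were 17 higher and 8 lower partners and 7111 calls (21.9% of all tested genes higher and 24.5% lower). Signs turned only in genes that did not pass. With 1 library left out Sema3c ran from −0.24 to 0.074, Sema4a from −0.28 to 0.064, Plxnb2 from −0.0060 to 0.032, Robo3 from −0.0053 to 0.35, Slit3 from −0.11 to 0.22 and Unc5a from −0.12 to 0.068. Plxnb2 also went to −0.0023 with upper quartile scaling, −0.066 with library size only and −0.0048 with a filter of 1 CPM in 5 libraries. Slit3 went to −0.0041 with library size only and to −0.049 without WT 2 and WWv 1 together, where Unc5a went to 0.079. The cause of these changes was not tested. Replicate numbers did not pair the libraries: the correlations of same-numbered libraries ran from −0.0920 to 0.308, and 0 of the 5 WWv libraries correlated best with the same-numbered WT library. The replicate block gave 7 higher and 13 lower guidance genes (12.5 and 23.2%, against 11.2 and 12.8% of all tested genes). It gave 9 higher and 3 lower partners and 3636 calls, and Kit at −1.09. Of the 4 class 6 semaphorins 1 was lower (Sema6a −0.82, Sema6b −0.47 and Sema6c −0.42 did not pass). Genes under about 0.216 CPM, the minimum of the filter, could not be judged at this depth.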
